A study of Mus musculus with 24 samples.

Results

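The 8 genes described here, Itpr1, Cacna1h, Trpm7, Stim1, Orai1, Atp2a2, Atp2b1 and Camk2g, act in calcium handling and egg activation, and were measured in mouse oocytes grown in culture. They were chosen by name from the 16572 genes of the deposited RNA-seq table, where all 8 were found, each in a single row. The RNA came from class IV oocytes, 60 to 70 µm by the labels, of mice labelled C57BL/6 Barb, whose ovaries were dissociated at 7 days of age and grown in culture without follicles. The study's methods describe the animals as offspring of a cross of that background with SV129. IV 5% O2 oocytes were kept under 5% oxygen for 9 days and IV 20% O2 oocytes under 20% oxygen for 14 days. By the study's methods, the medium was also changed more often at 5% oxygen. Oxygen, culture time and medium change therefore cannot be told apart. Theca-like cells supported the oocytes early in the culture, and each library pooled many oocytes. The study's methods, unlike the labels, give a window of slightly smaller diameters at 20% oxygen than at 5% oxygen, so that oocyte size may also differ. Of the 24 samples of the series, 4 are RNA-seq libraries, 2 per condition, but the table holds 1 pooled value per gene and condition. No value below therefore has a spread between libraries, and no difference has a replicate check or a p-value.

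Calcium is the signal that starts development in the mammalian egg. Sperm phospholipase makes inositol trisphosphate (IP3), the IP3 receptor opens calcium stores of the endoplasmic reticulum, and pumps refill the stores between spikes while channels of the plasma membrane replace the calcium that is lost. Calmodulin-dependent kinase II reads the spikes and releases the egg from its meiotic arrest. The oocyte has to build up this machinery as it grows, before transcription stops.

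The values are RPM, reads scaled to the depth of their column, and carry no correction for gene length. The IV 5% O2 column holds 132185258 reads and the IV 20% O2 column 40875358, of which 82.9% and 72.8% were counted on genes. Intervals are exact 95% counting intervals, Poisson for a level and Clopper-Pearson for a ratio, which compare these libraries and cover counting error only. Where a pair of values is given for a gene, that of IV 5% O2 comes first. The cells were oocytes by their markers. All 13 oocyte markers were found, with summed levels of 10185 RPM at 5% O2 against 14060 RPM at 20% O2, and with Zp2 (1537 and 3807 RPM) and Gdf9 (2346 and 2805 RPM) highest on the mean of both columns. At least 2-fold lower in IV 5% O2 were 3 of the 13 (Zp2, Zp3 and Kit), and 4 of the 13 were higher at any size, of which Nobox (496 and 271 RPM) was the farthest apart.

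Transcripts of the IP3 receptor Itpr1 and of the store-operated channel Orai1 were lower in IV 5% O2 than in IV 20% O2 oocytes, by 1.62-fold and 2.09-fold. The other 6 genes differed by at most 0.2 on the log2 scale as deposited, while with median-ratio scaling of the columns they were between -0.47 (Stim1) and -0.12 (Atp2b1). As bulk values, these do not tell fewer cells with a transcript from less RNA per cell. Differences are given as IV 5% O2 minus IV 20% O2 on log2(RPM + 1), and were computed for 14704 genes, those whose mean reached 1 RPM, which are called the genes tested although no significance test was possible. At least 2-fold lower were 1 of the 8 genes (Orai1), against 9.22% of all genes tested, and 0 of the 8 were at least 2-fold higher, against 18.7%. The median difference of the 8 was 0.01 and that of all genes tested 0.26, with 8 of 8 below the latter. By at least 0.5 below the median gene lay 2 of the 8 (Itpr1 and Orai1), against 27.3% of all genes. A lower value in IV 5% O2 of any size was found for 3 of the 8, against 37.4% of all genes.

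**Figure D1:**
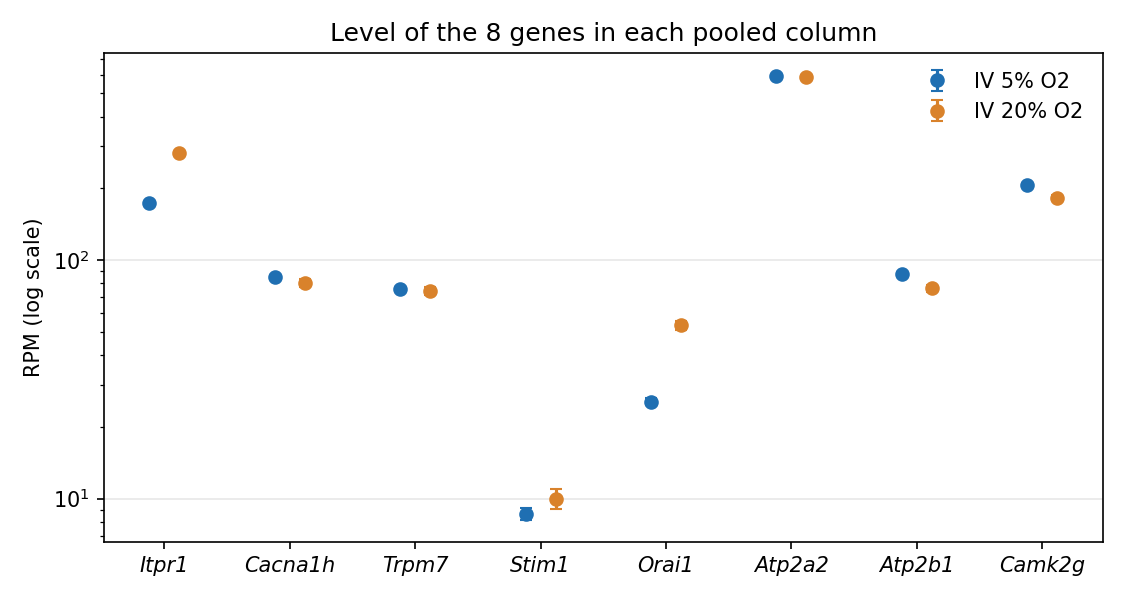
Level of the 8 genes (RPM, log scale) in the pooled IV 5% O2 and IV 20% O2 columns, with exact 95% Poisson intervals that are mostly smaller than the points. Itpr1 and Orai1 sit lower in IV 5% O2, Atp2a2 is at 590 and 588 RPM, and Stim1 is the lowest of the 8 in both.

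Itpr1 encodes the type 1 IP3 receptor, the channel of the endoplasmic reticulum through which the egg releases its stored calcium. The gene lies on chromosome 6 of GRCm38 from 108213096 to 108551109 on the plus strand, with 18.3 kb of annotated exon. It had 173 RPM at 5% O2 (22910 reads, interval 171 to 176) against 280 RPM at 20% O2 (11452 reads, interval 275 to 285). The intervals do not overlap, and the level in IV 20% O2 was 1.62-fold higher (interval 1.58 to 1.65). On the log2 scale the difference was -0.69, or -0.95 relative to the median gene, and 14.3% of all genes tested had a lower value. Its paralogs were not lower in the same way. Itpr2 had 133 and 118 RPM and Itpr3 had 28.1 and 21.0 RPM. Per kb of exon, Itpr1 thus made up 43.9% of the 3 receptor genes in IV 5% O2 and 59.7% in IV 20% O2, while Itpr2 made up 41.6% and 31.2%. These shares, and those of the other families below, use all annotated exons and depend on that length. The longest coding transcript of Itpr1 has 9870 bases, and shares on such lengths were not computed. The difference of Itpr3 (0.40) stayed positive under each of 3 other scalings of the columns, whereas that of Itpr2 (0.16) turned to between -0.15 and -0.02.

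Cacna1h encodes the pore of a T-type channel, Cav3.2, which opens on small changes of voltage and carries calcium into the mouse oocyte. It lies on chromosome 17 from 25374285 to 25433783 on the minus strand. Its level was 84.6 RPM at 5% O2 (interval 83.1 to 86.2) against 80.2 RPM at 20% O2 (interval 77.5 to 83.0). The difference of 0.08 is small beside the quartiles of all genes tested (-0.31 and 0.82). Of the other T-type genes, Cacna1i had 24.3 and 32.0 RPM, lower in IV 5% O2 under each scaling, and Cacna1g had 141 and 12 reads, or 1.07 and 0.294 RPM. Cacna1h held 77.1% of the length-corrected level of these 3 genes in IV 5% O2 and 71.5% in IV 20% O2.

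Trpm7 encodes a channel for calcium, magnesium and zinc that is fused to a kinase, and Trpm6 is its closest relative. Trpm7 lies on chromosome 2 from 126791565 to 126876230 on the minus strand. It had 75.4 RPM at 5% O2 (9966 reads) against 74.2 RPM at 20% O2 (3031 reads), a ratio of 1.02 whose interval (0.976 to 1.06) spans equality. Trpm6 stood apart from it with 22.8 RPM at 5% O2 (3020 reads) against 0.538 RPM at 20% O2 (22 reads), a ratio of 42.4 (interval 28.0 to 67.8). Its share of the length-corrected level of both genes was 30.8% in IV 5% O2 and 1.05% in IV 20% O2. None of the exonic windows of 50 bases examined in Trpm6 and Trpm7 occurs a second time in the genome. The log2 difference of Trpm6 was between 3.61 and 4.04 with the other scalings.

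Promoters were found for 4 of the 8 genes (Trpm7, Orai1, Stim1 and Atp2b1), and among these the 250 bases before the start site held an E-box, CACGTG, at Trpm7. The E-box contains ACGTG, the only form of the hypoxia response element core that was searched. The window is chr2:126876262-126876511 of GRCm38.p6, from RefSeq, and is written below from 5′ to 3′ on the minus strand, with the match in capitals.
Trpm7: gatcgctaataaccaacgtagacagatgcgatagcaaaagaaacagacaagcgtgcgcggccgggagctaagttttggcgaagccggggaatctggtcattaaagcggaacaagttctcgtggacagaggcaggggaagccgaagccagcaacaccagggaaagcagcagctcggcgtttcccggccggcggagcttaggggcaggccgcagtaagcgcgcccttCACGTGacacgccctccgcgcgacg
The first base of the match lies 25 bases before the start site, and another match begins 17 bases into the transcript. Atp2b1 also has an E-box, which begins 9 bases into its transcript and so lies outside the 250 bases before its start. Both strands were searched. The E-box occurs in 6.02% of all windows of 250 bases before a start site, and ACGTG in 16.6%. A match of these letters is a description, and its part in the level of Trpm7 was not tested.

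Stim1 and Orai1 form the store-operated entry of calcium. Stim1 senses the calcium level of the endoplasmic reticulum and opens Orai1, a channel of the plasma membrane, when the store is empty. Orai1 lies on chromosome 5 from 123015074 to 123030456 on the plus strand, and Stim1 on chromosome 7 from 102267806 to 102437319 on the plus strand. Their 250 bases before the RefSeq start site (chr5:123014824-123015073 and chr7:102267569-102267818 of GRCm38.p6, plus strand, 5′ to 3′) are shown because the partners differ in the size of their difference between the columns. Neither holds an E-box, ACGTG or the NOBOX element (TAATTG) on either strand, so that no base is in capitals. Other forms of the hypoxia response element core were not searched.
Orai1: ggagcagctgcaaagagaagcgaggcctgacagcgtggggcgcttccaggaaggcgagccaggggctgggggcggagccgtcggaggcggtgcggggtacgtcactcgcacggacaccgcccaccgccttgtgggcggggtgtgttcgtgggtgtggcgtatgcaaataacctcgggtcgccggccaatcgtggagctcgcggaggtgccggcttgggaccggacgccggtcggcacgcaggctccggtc
Stim1: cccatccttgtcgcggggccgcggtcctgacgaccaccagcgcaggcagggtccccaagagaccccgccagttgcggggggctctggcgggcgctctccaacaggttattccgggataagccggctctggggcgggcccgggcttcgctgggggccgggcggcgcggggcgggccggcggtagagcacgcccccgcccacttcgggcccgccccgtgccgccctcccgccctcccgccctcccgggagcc
The windows are rich in CpG. With 50 bases of transcript added, that of Orai1 had 70.3% GC and 36 CpG, and that of Stim1 78.7% GC and 38 CpG, against medians of 52.7% and 7 over 32851 promoters. The 5 windows found, which belong to Trpm7, Orai1, Stim1 and Atp2b1 (2 windows), had 35 to 54 CpG, and none of them held the NOBOX element, which 8.0% of all promoters do. Itpr1, Camk2g, Cacna1h and Atp2a2 were not matched.

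Orai1 had 25.5 RPM at 5% O2 (3372 reads, interval 24.7 to 26.4) against 53.3 RPM at 20% O2 (2178 reads, interval 51.1 to 55.6). It was the gene of the 8 that was farthest apart, 2.09-fold higher in IV 20% O2 (interval 1.98 to 2.21). Its log2 difference was -1.03, or -1.29 relative to the median gene, and 8.75% of genes tested had a lower value. The call of 2-fold rests on the edge of the threshold. It was lost with a pseudocount of 5 RPM (-0.93) and after division by exonic length (-0.999, just short of the threshold), but the direction was kept in each setting. Orai3, the other ORAI gene analysed, had 6.80 and 6.29 RPM, with a ratio of 1.08 whose interval (0.941 to 1.25) spans equality. Stim1 was the least abundant of the 8, at 8.65 RPM at 5% O2 (1144 reads, interval 8.16 to 9.17) against 9.96 RPM at 20% O2 (407 reads, interval 9.01 to 10.97). These level intervals overlap slightly, and the ratio of IV 20% O2 to IV 5% O2 was 1.15 (interval 1.02 to 1.29). Its paralog Stim2, a sensor that responds to smaller losses of stored calcium, went the other way, with 128 RPM at 5% O2 (16925 reads) against 18.3 RPM at 20% O2 (749 reads). Stim2 was 6.99-fold higher in IV 5% O2 (interval 6.49 to 7.53), and its log2 difference of 2.74 was between 2.43 and 2.57 with the other scalings. The summed length-corrected level of the STIM genes was therefore 25.8 in IV 5% O2 and 4.53 in IV 20% O2. That of Orai1 and Orai3 was 14.3 and 26.2 RPM per kb, and Orai2 was not found.

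Markers of other ovarian cells were counted beside these differences. Of 18 theca and stroma markers, 10 could be analysed, and 10 of 10 were higher in IV 5% O2, with summed levels of 45.3 RPM at 5% O2 against 5.48 RPM at 20% O2. Cyp11a1, an enzyme of steroid synthesis, had 16.4 and 0.122 RPM and Fn1 (fibronectin) 4.94 and 2.30 RPM, and Col1a2, Dcn and Vim had no reads in IV 20% O2, which allows up to 0.0734 RPM each. Their part in the differences of Trpm6 and Stim2, and of the other genes higher in IV 5% O2, was not tested. Granulosa markers (6 of 12) summed to 41.3 and 29.8 RPM, mostly from Nr5a2 (18.7 and 17.6 RPM) and Kitl (10.2 and 5.58 RPM). Higher in IV 5% O2 were 5 of these 6, with Inhba (2.63 and 0.758 RPM) past 2-fold as deposited, Fshr at 0 reads in IV 5% O2 and Inha at 0 reads in IV 20% O2. Macrophage markers (4 of 10) summed to 24.9 and 22.6 RPM, with Csf1r at 9.28 and 15.0 RPM and Cd68 at 7.18 and 6.14 RPM. Except for Csf1r they were higher in IV 5% O2 (3 of 4), with C1qb (7.07 and 1.44 RPM) past 2-fold and Lyz2 at 0 reads in IV 20% O2. Erythroid markers (2 of 9) summed to 2.47 and 1.57 RPM, with Alas2 at 1.32 and 1.57 RPM and Slc4a1 at 0 reads in IV 20% O2. Endothelial markers (5 of 9) summed to 121 and 286 RPM, of which Vwf alone had 55.5 and 248 RPM. The other 4, Pecam1 (45.9 and 32.7 RPM), Tek, Tie1 and Kdr (0 reads in IV 20% O2), were higher in IV 5% O2.

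**Figure D2:**
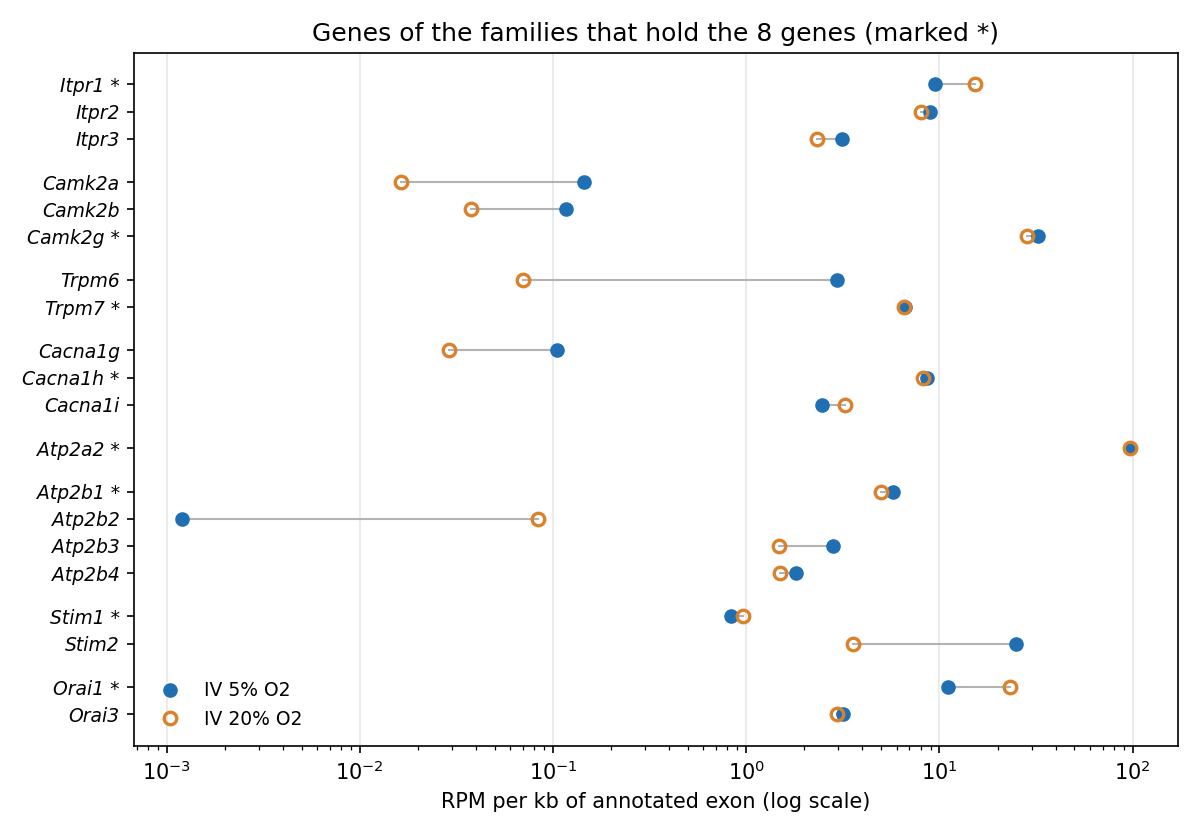
Level per kb of annotated exon (log scale) of the genes found of each family that holds one of the 8 genes, in IV 5% O2 (filled) and IV 20% O2 (open). Stim2 and Trpm6 sit to the right in IV 5% O2 and Orai1 and Itpr1 in IV 20% O2, whereas the points of Trpm7 and Atp2a2 nearly coincide.

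Calcium is taken out of the cytosol by pumps. Atp2a2 encodes SERCA2, which returns calcium to the endoplasmic reticulum, and Atp2b1 encodes PMCA1, which expels it across the plasma membrane. Atp2a2, on chromosome 5 from 122453513 to 122502225 (minus strand), was the most abundant of the 8 genes. It had 590 RPM at 5% O2 (78028 reads) against 588 RPM at 20% O2 (24054 reads), a ratio of 1.00 with an interval of 0.989 to 1.02. Per kb of exon it stood at percentile 98.03 of genes tested in IV 5% O2 and 98.12 in IV 20% O2. Against this pump, the release channel Itpr1 was 1.62-fold lower in IV 5% O2, a ratio within each column that does not depend on the depth of the columns. Atp2b1, on chromosome 10 from 98914406 to 99026143 (plus strand), had 87.2 RPM at 5% O2 (interval 85.6 to 88.8) against 76.2 RPM at 20% O2 (interval 73.5 to 78.9). The difference of 0.19 was the highest of the 8, and still 0.07 below the median gene (-0.07). Among its paralogs, Atp2b3 had 13.6 and 7.09 RPM, Atp2b4 22.2 and 18.3 RPM, and Atp2b2 2 and 43 reads, 69.5-fold higher at 20% O2 with a counting interval of 18.1 to 592. Atp2b1 held 55.3% and 62.2% of the length-corrected level of these 4 pumps.

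Camk2g encodes the gamma subunit of calmodulin-dependent kinase II, the form that is needed for egg activation in the mouse. It lies on chromosome 14 from 20734875 to 20794088 on the minus strand, and none of its exonic windows of 50 bases examined is repeated in the genome. Camk2g had 207 RPM at 5% O2 (27401 reads, interval 205 to 210) against 183 RPM at 20% O2 (7462 reads, interval 178 to 187). The level was 1.14-fold higher in IV 5% O2 as deposited (interval 1.11 to 1.17), but the sign of the log2 difference (0.18) depended on the scaling. Camk2a had 1.08 and 0.122 RPM and Camk2b 1.07 and 0.343 RPM, so that Camk2g made up 99.2% and 99.8% of the length-corrected level of the 3 kinase genes analysed. Camk2d was not found and is not part of this share.

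Per kb of annotated exon, the order of the 8 genes was the same in both columns, but it was not with another transcript length. In IV 5% O2, Atp2a2 (97.1 RPM per kb) was followed by Camk2g (32.4), Orai1 (11.1), Itpr1 (9.46), Cacna1h (8.67), Trpm7 (6.66), Atp2b1 (5.73) and Stim1 (0.834). In IV 20% O2 the corresponding levels were 96.8, 28.5, 23.2, 15.3, 8.21, 6.55, 5.00 and 0.960 RPM per kb. The highest and the lowest were thus 116-fold and 101-fold apart, a wider range than any of the 8 differences between the columns. No counting intervals of neighbours in this order overlap, but the spread between libraries is unknown and the order depends on the transcript length. With the longest coding transcript in place of all annotated exons, Itpr1 came before Orai1 in IV 5% O2 (17.6 and 13.6 RPM per kb), while both were at 28.4 RPM per kb in IV 20% O2. On that length Atp2b1 came before Trpm7 and Cacna1h in both columns.

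**Figure D3:**
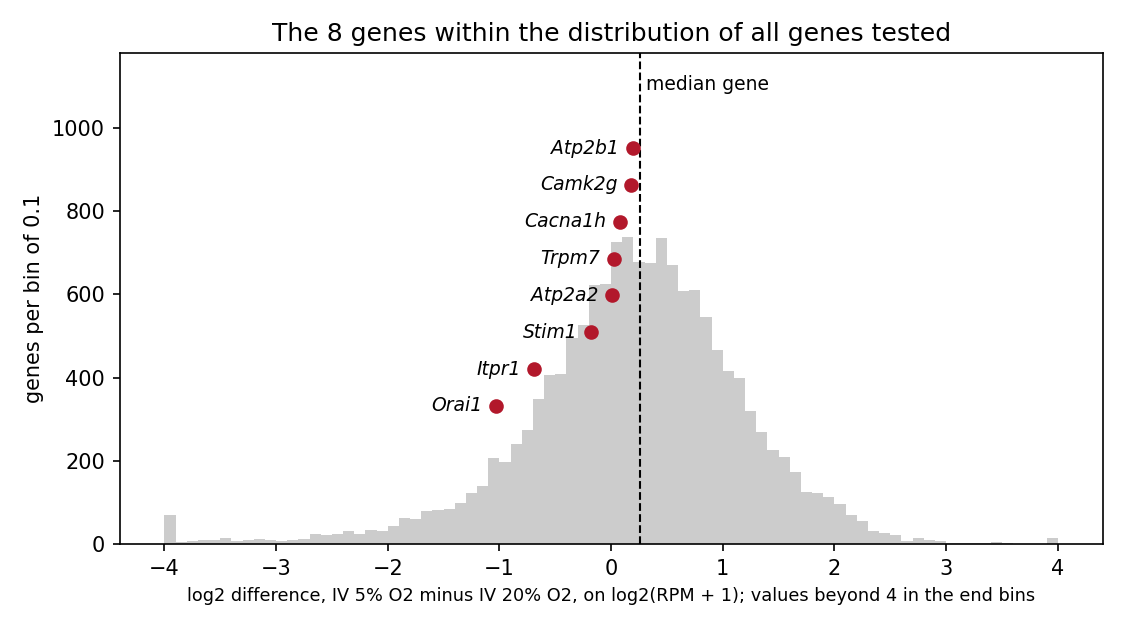
Log2 difference (IV 5% O2 minus IV 20% O2) of the 8 genes, as points at arbitrary heights, on the histogram of all 14704 genes tested, with the median gene (0.26) as a dashed line. All 8 points lie left of the line, Orai1 and Itpr1 farthest from it.

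The sign of the smaller differences depended on how the columns were scaled. With the columns scaled to the reads counted on genes, the median of all genes moved to 0.10, with quantile normalization to 0.06 and with median-ratio scaling to -0.04. Of the 8 genes, 7, 8 and 8 were then below zero, in place of 3 as deposited. The first and the last of these scalings apply 1 factor per column, so that they move all genes nearly alike and do not test the position of the 8 genes relative to the others. Quantile normalization can change it, and 8 of 8 genes lay below the median gene there. Itpr1 was at -0.88, -0.93 and -1.01 in these scalings, Orai1 at -1.23, -1.20 and -1.34 and Stim1 at -0.36, -0.35 and -0.47. Trpm7, Cacna1h, Atp2a2 and Camk2g turned negative with all 3, and Atp2b1 with quantile normalization (-0.02) and median-ratio scaling (-0.12), so that no direction is given for these 5 genes. Few exonic bases were repeated or shared. At most 3.35% of the exonic windows of 50 bases and 0.375% of those of 100 bases are repeated for any of the 8 (Atp2b1 in both cases), and at most 1.62% of their exonic bases are shared with another annotated gene.

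**Figure D4:**
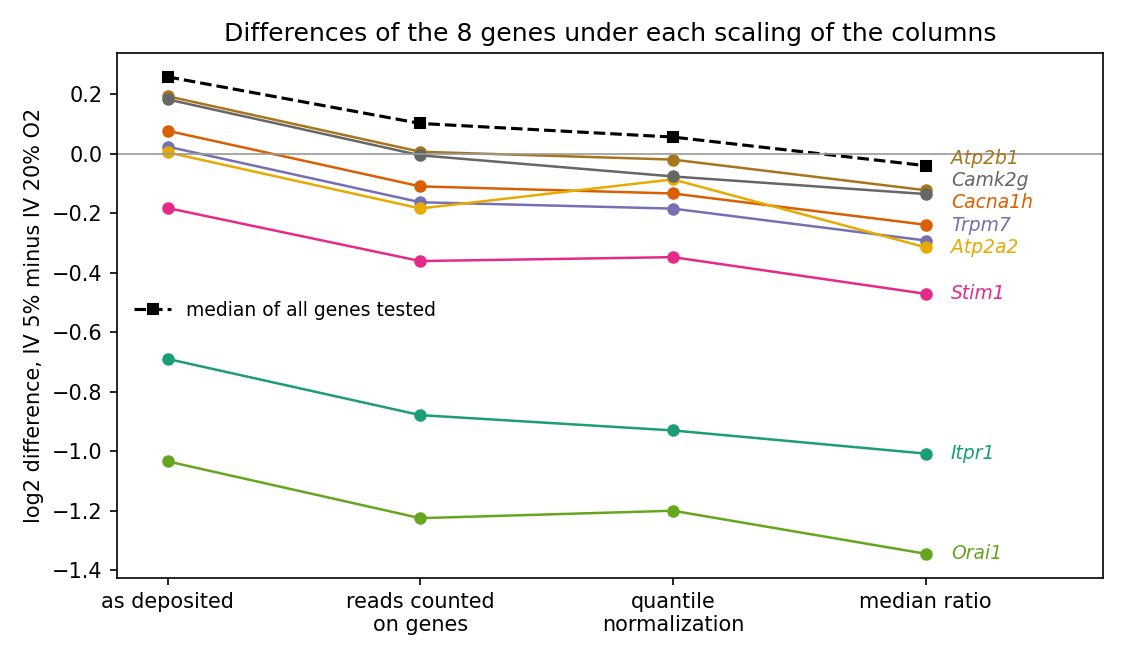
Log2 difference of each of the 8 genes under 4 scalings of the columns (circles) with the median of all genes tested (black squares). Scaling to the reads on genes and median-ratio scaling apply 1 factor per column and so shift all lines nearly alike, and the genes between zero and the median as deposited change sign, except Atp2b1 when scaled to the reads on genes.

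In the plane of both levels, the gene nearest to Orai1 was Rpl6, a ribosomal protein gene with 26.01 and 53.5 RPM, at a distance of 0.03 on the log2 scale. This likeness rests on 2 columns, and 11 genes lay within 0.1 of Orai1. At Rpl6, 14.0% of the exonic windows of 100 bases are repeated in the genome.

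The 8 genes were then set beside other genes of the same pathways. Over 12 lists, 175 genes were found and 161 tested, of which 27 were at least 2-fold higher in IV 5% O2 (16.8%, against 18.7% of all genes) and 11 at least 2-fold lower (6.83%, against 9.22%). Their median difference of 0.29 was near that of all genes. The excess of higher genes depended on the scaling, as it did among all genes. With median-ratio scaling 17 were higher and 19 lower, with quantile normalization 18 and 15, and with scaling to the reads on genes 22 and 16. Of the 38 genes called as deposited, 38 kept their sign under the 4 scalings, and 16 of the higher and 11 of the lower ones passed 2-fold in each. Of the 153 genes that are not among the 8, the median was 0.39.

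On the side of calcium release, 1 of 7 channel genes tested was at least 2-fold higher, with Pkd2 (polycystin 2) at 10.9 and 2.54 RPM, and Ryr2, a ryanodine receptor, had 14.9 and 12.5 RPM. Of 10 regulators of release, 0 were 2-fold higher and 1 was lower. The lower gene was Ahcyl1, which encodes IRBIT, a protein that competes with IP3 for the receptor, with 14.1 RPM at 5% O2 against 44.6 RPM at 20% O2 (-1.59). Calr, the calcium-binding chaperone of the endoplasmic reticulum, had 460 and 244 RPM (0.91), Itprip 100 and 50.3 RPM (0.98) and Bcl2l10, a BCL2 relative of the oocyte, 811 and 508 RPM (0.67), all short of 2-fold. Among 16 genes of IP3 production, 5 were higher and 1 lower. Plce1 (phospholipase C epsilon) had 180 and 49.4 RPM, Plcb1 53.7 and 22.4 RPM and Itpka 3.42 and 1.03 RPM, while Plcd4 was lower in IV 5% O2 with 3.99 and 14.4 RPM. Plcb1 was short of 2-fold with median-ratio scaling (0.91), and Itpka with that (0.92) and with quantile normalization (0.83). Plcb3 (0.75 to 0.89) and Pip5k1c (0.74 to 0.89), also counted as higher, were short with each of the 3 other scalings. Of the exonic bases of Plcd4, 29.8% are shared with Zfp142.

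Among entry channels, 5 of 13 TRP genes were at least 2-fold higher and 0 lower. Besides Trpm6 these included Trpa1, an irritant receptor, with 46.4 and 6.75 RPM, Trpc4 with 10.4 and 3.62 RPM, and Trpc5 with 2.70 and 0.514 RPM. Trpc5 was short of 2-fold with quantile normalization (0.90), and Trpv3, also counted as higher, with each of the 3 other scalings (0.76 to 0.92). Of 11 voltage-gated channel genes, 1 was higher and 1 lower. Cacna1s, the channel of skeletal muscle, had 3.75 RPM at 5% O2 and no reads in IV 20% O2. That is 51.1-fold higher against a floor of 3 reads, with a lower bound of 41.4 by the counting interval of the ratio. Of the exonic bases of Cacna1s, 19.98% are shared with Gm37759. Cacna1d had 20.1 and 43.1 RPM (-1.07), and the accessory subunits Cacnb2 (8.23 and 16.5 RPM) and Cacnb3 (21.7 and 10.7 RPM) went opposite ways without reaching 2-fold on the log2(RPM + 1) scale as deposited. With the 3 other scalings Cacnb2 passed 2-fold (-1.21 to -1.09). In the store-operated list, with 6 genes tested, Stim2 and Orai1 were the genes past 2-fold, while Saraf, which restrains store-operated entry, had 206 and 157 RPM and Stimate 11.8 and 10.4 RPM.

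Of 11 pumps and exchangers, 2 were higher and 1 lower. Atp2c1, the calcium and manganese pump of the Golgi, had 834 RPM at 5% O2 against 361 RPM at 20% O2, and 18.9% of its exonic bases are shared with Aste1. Its difference (1.21) fell short of 2-fold after quantile normalization (0.999) and under median-ratio scaling (0.89). Slc8a2, a sodium-calcium exchanger, had 7.01 and 1.13 RPM, and Slc24a4, an exchanger that also moves potassium, was lower in IV 5% O2 with 9.19 and 50.3 RPM (-2.33). Of 17 genes of the calmodulin, kinase and calcineurin list, 4 were higher and 1 lower. Calm3, a calmodulin gene, had 69.2 and 17.9 RPM and Camkk1 5.90 and 1.25 RPM. Camk4, also counted as higher, was short of 2-fold with each of the 3 other scalings (0.85 to 0.99). Of the catalytic subunits of calcineurin, Ppp3ca had 16.4 and 6.07 RPM and Ppp3cb 17.9 and 53.9 RPM. Ppp3cc, the highest of the 3 per kb of exon, had 35.9 and 37.1 RPM, with a ratio of 0.969 whose interval (0.914 to 1.03) spans equality. Downstream of the calcium signal, 4 of 21 regulators of meiotic exit were higher and 0 lower. Cdc20, an activator of the anaphase-promoting complex, had 111 and 52.3 RPM (1.07), Ccnb3 (cyclin B3) 34.1 and 6.46 RPM, and Rps6ka1 45.2 and 21.2 RPM. With each of the 3 other scalings Cdc20 (0.75 to 0.89) and Rps6ka1 (0.74 to 0.89) were short of 2-fold. Rps6ka2 had 5.21 RPM against 5 reads in IV 20% O2, and 15.2% of its exonic windows of 100 bases are repeated.

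**Figure D5:**
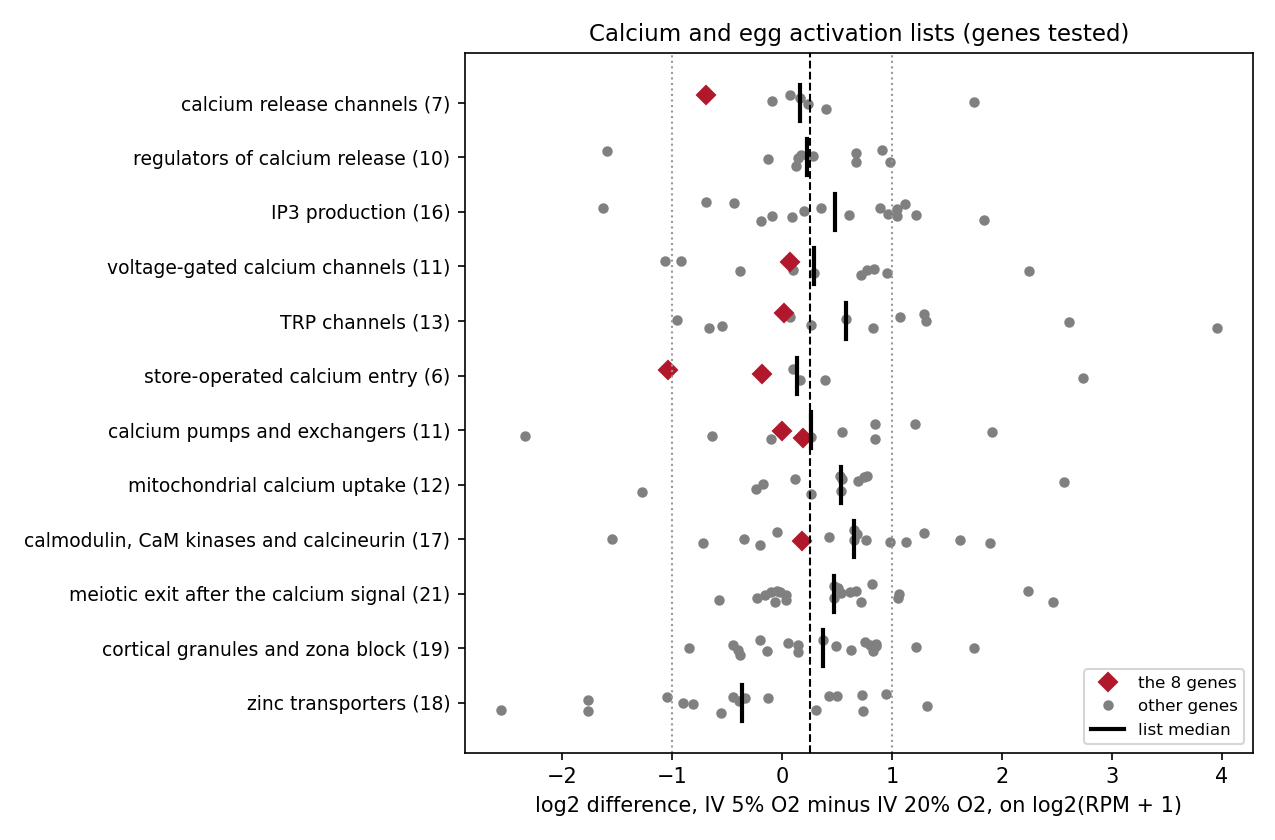
Log2 difference (IV 5% O2 minus IV 20% O2) of each gene tested in 12 lists, with the 8 genes as diamonds, list medians as bars, the median gene (0.26) as a dashed line and 2-fold as dotted lines. Each of the 8 genes sits below the median of its list, and Trpm6 (3.95) and Stim2 (2.74) lie farthest to the right.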

How the data were processed

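RNA-seq of class IV oocytes was analysed. Per the submitters' processing notes, the labels and the methods, the authors trimmed reads with Trim Galore, aligned them to mm10 with TopHat2 2.0.9, counted them over exons of an oocyte annotation in SeqMonk and deposited log2 values, 1 column per condition. Whether reads or values of the 2 libraries were pooled is not given in the sources used here. The values are named RPKM and a correction for length is described, but the deposited linear values are whole multiples of 1 read (within 0.02 reads for 99.4% and 99.95% of rows), the same for every gene, and were read as RPM. A gene without reads, listed at 0.9 of 1 read, was set to 0. The table holds 1 further value column that belongs to no mapped sample and was not used. Where a name had several rows, as 18 names did, that with the highest mean was taken.

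Exonic lengths came from GENCODE vM21 on GRCm38, with gene coordinates exactly matched for 16396 genes. The members, gene lists and motifs were chosen with earlier results of these data known. Named genes were the 8 members, the genes of their families that were found, and up to 4 genes per list with the largest differences. The 2 most abundant of each marker list and, for Orai1, the nearest gene were also named. Further markers, Ppp3cc, Plcb3, Pip5k1c, Trpv3, Camk4 and Padi6 were named after their values were seen. On pooled columns no test was possible, so a call is a 2-fold difference. Intervals and calls were tested on simulated data. Alternatives were pseudocounts, filters, scalings, division by length and summed rows. Computation used scipy 1.17.1, pandas 2.3.3 and numpy 2.4.6 under Python 3.11.15, numba 0.67.0 for repeated exonic windows, taken every 10 bases, and figures were drawn in matplotlib 3.10.9.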

Additional observations from a re-analysis of the deposited data

How the results depend on the processing

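No paired analysis was possible because each deposited column merges both libraries of its condition, and for the same reason no library could be left out. The median difference of the 8 genes, 0.01 as deposited, was -0.30 under median-ratio scaling, -0.16 after quantile normalization and -0.17 when scaled to the reads counted on genes. These scalings shift all genes, since median-ratio scaling and the reads on genes apply 1 factor per column; for quantile normalization the cause was not tested. The number of the 8 genes at least 2-fold lower, 1 as reported, was 0 with a pseudocount of 5 RPM, 0 after division by exonic length, where Stim1 fell below the filter, and 2 with median-ratio scaling (Itpr1 and Orai1). Of the pathway genes, 27 were higher as reported, against 17 under median-ratio scaling, 13 with a pseudocount of 5 RPM and 11 per kb of exon, where 124 and not 161 genes passed the filter. The 11 lower ones were 7 per kb of exon and 19 under median-ratio scaling. The median-ratio scaling moved the share of higher among all 2-fold calls from 67.0% to 45.6%, quantile normalization to 48.6% and the reads on genes to 56.5%. The IV 20% O2 column is 3.23 times shallower and limits the precision for Stim1 (407 reads) and Trpm6 (22 reads). With quantile normalization 18 pathway genes were higher, 1.5 times fewer, and with a pseudocount of 0.1 RPM 39 were higher. The other settings run moved these counts by a factor below 1.5.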

Other observations

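Mitochondria take up part of each calcium spike. Of 12 genes of mitochondrial calcium uptake tested, 1 was at least 2-fold higher in IV 5% O2 and 1 lower. Mcub, a subunit that dampens the uniporter, had 26.1 RPM at 5% O2 against 3.57 RPM at 20% O2 (2.57). Smdt1, which encodes EMRE, the subunit that joins the pore to its gatekeepers, had 11.01 and 28.1 RPM (-1.28), and 16.6% of its exonic bases are shared with Pheta2. The pore gene Mcu had 44.8 and 25.7 RPM (0.78) and Mcur1 had 36.0 and 21.0 RPM (0.75), which do not reach 2-fold.

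Egg activation also empties the cortical granules and releases zinc. Of 19 genes of cortical granules and the zona block, 2 were higher (Prkcd, a protein kinase C, with 70.1 and 20.1 RPM, and Rabl2 with 10.3 and 3.87 RPM) and 0 were lower. Rabl2 was short of 2-fold with median-ratio scaling (0.95). Padi6, the most abundant of this list, had 2266 and 4072 RPM (-0.85). It passed 2-fold lower with median-ratio scaling (-1.16) and the reads on genes (-1.03), but not with quantile normalization (-0.57). Syt1 (8.07 and 4.01 RPM) and Stx4a (5.44 and 2.57 RPM), both of vesicle fusion, were short of 2-fold on the log2(RPM + 1) scale. The zinc transporters had the lowest median of the 12 lists, -0.36, with 4 of 18 genes at least 2-fold lower in IV 5% O2 and 1 higher. Slc39a8 had 9 reads in IV 5% O2 (0.0681 RPM) and 216 reads in IV 20% O2 (5.28 RPM), Slc30a6 had 3.16 and 13.1 RPM and Slc30a2 had 8.22 and 30.3 RPM. Slc39a7, the higher one with 46.1 and 17.9 RPM, shares 80.7% of its exonic bases with the predicted gene Gm20427.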
